A study of Homo sapiens with 12 samples.

Results

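The SLC25 genes encode the mitochondrial carrier family, and they were followed here as every gene whose current symbol is SLC25A and a number. The table held 43 of them among 14029 genes tested, of 48 such symbols in the gene name table, and SLC25A2, SLC25A31, SLC25A47, SLC25A48 and SLC25A52 were not analysed here. The rule reads the symbol and no measured value. The cells were ES-2, a line grown from a human ovarian carcinoma, with an SRMS shRNA (labelled SRMS knockdown) or a control vector (titled PLKO, labelled WT), and both groups had received 15 µM cisplatin for 8 hours. Each group had 3 libraries, numbered as replicates 1 to 3. The labels do not say whether a line was a single clone, how many hairpins were used, or whether the replicates were grown as separate cultures; the spread that p-values are set against is that between these libraries and may be technical. The 6 samples given PBS are not analysed here, so no response to cisplatin was measured.

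Mitochondrial carriers are small proteins of the inner mitochondrial membrane, built from a repeated domain, that move metabolites between the cytosol and the matrix. Most of them exchange one solute for another, such as ADP for ATP, malate for oxoglutarate or aspartate for glutamate, and several are present as pairs of close relatives with different tissue patterns. Cancer cells depend on them to export citrate for lipid synthesis, to run the malate-aspartate shuttle and to bring folate, iron and glutathione into the matrix.

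Values are given as signal, in which the reads of a gene are divided by the effective size of its library and put on the CPM scale. The reads behind them came to between 28009232 and 38072051 in the libraries labelled SRMS shRNA and to between 29072793 and 56855428 in the vector libraries. SRMS, the gene targeted by the hairpin, was counted in 9, 39 and 27 reads in the libraries labelled SRMS shRNA, against 2, 14 and 47 reads in the vector libraries. Its signal was 0.328, 1.07 and 0.863 in the libraries labelled SRMS shRNA and 0.0669, 0.306 and 0.819 in the vector libraries, a log2 fold change of 0.52 (95% interval -0.15 to 1.19, limma adjusted p = 0.168; 0.00782 with the replicate number as a block, toward more SRMS). No fall of the target was seen, so the groups are named below by their labels. The line's epithelial and mesenchymal markers KRT7, KRT8, KRT18 and VIM were all expressed, PAX8 stood at a mean signal of 0.241 in the libraries labelled SRMS shRNA and 0.136 in the vector libraries, and EPCAM and MUC16 were not analysed here. Of the markers of other cells, COL1A1 summed with COL3A1 was at 813 to 820 in the libraries labelled SRMS shRNA and 1236 to 1239 in the vector libraries. Nearly all of that was COL1A1, as COL3A1 had mean signals of 0 and 0.0364. The monocyte marker CD14 had a mean signal of 3.24 in the libraries labelled SRMS shRNA and 0.879 in the vector libraries. The endothelial CDH5 and PECAM1 went opposite ways. CDH5 had a mean signal of 6.12 in the libraries labelled SRMS shRNA and 15.2 in the vector libraries. PECAM1, which did not pass, had 0.393 in the libraries labelled SRMS shRNA and 0.211 in the vector libraries. CD3E, PTPRC, VWF and DCN were not analysed here. The part of these markers of other cells in the results below was not tested.

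Carriers moved in both directions, and the largest change was in an ADP/ATP carrier. SLC25A6 fell by 1.13 on the log2 scale in the libraries labelled SRMS shRNA, and SLC25A29, SLC25A22 and SLC25A36, which carry basic amino acids, glutamate and pyrimidine nucleotides, fell by 0.65, 0.63 and 0.49. SLC25A18, SLC25A23 and SLC25A20, carriers of glutamate, ATP-Mg and acylcarnitines, rose by 0.59, 0.45 and 0.40. By limma on log2(signal + 0.5), adjusted by Benjamini-Hochberg across the 14029 genes with a limit of 0.05, 24 of the 43 carriers passed, against 56.8% of all genes tested. Of these carriers 11 rose and 13 fell, which is 25.6% and 30.2% of the 43, and over all genes 26.6% rose and 30.2% fell. The shares among carriers were thus near those of the background. The median log2 fold change of the carriers was -0.03, against 0.00 over all genes. In 28 of the 43 carriers the groups did not overlap, against 62.7% of all genes; 14 of the 28 were higher (29.7% of all genes) and 14 lower (32.9% of all genes). With the replicate number as a block 29 carriers were called, against 65.3% of all genes. In bulk RNA, less RNA per cell and fewer cells that express a gene cannot be told apart.

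**Figure D1:**
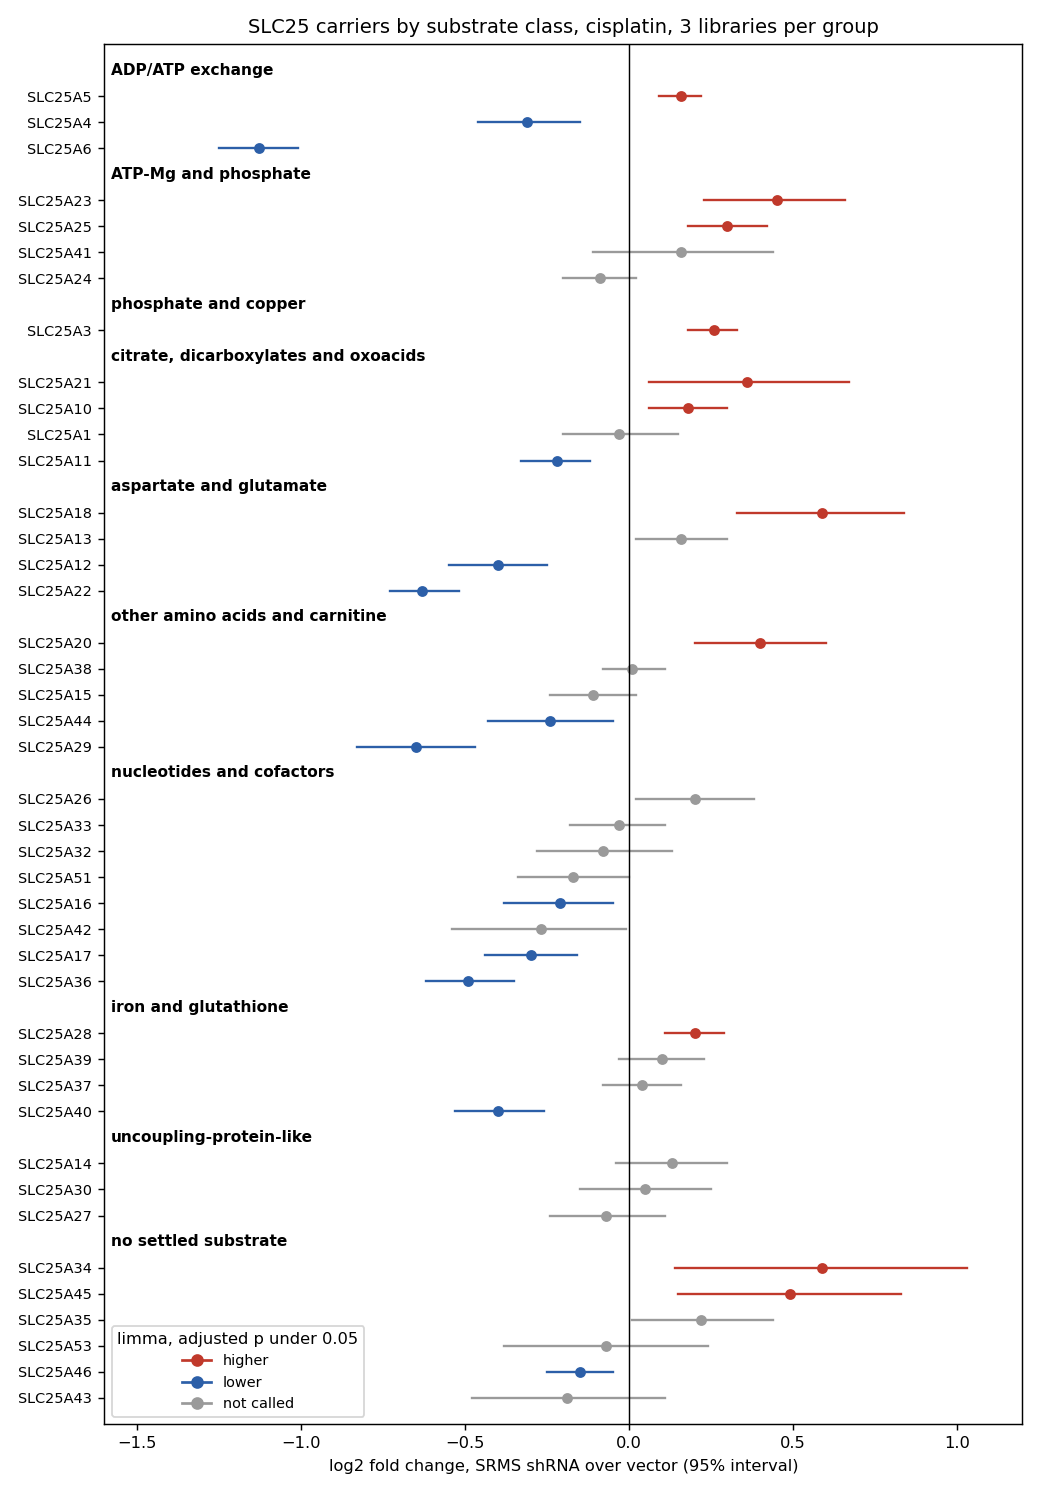
Log2 fold changes of the carriers described in the text (x axis, libraries labelled SRMS shRNA over vector libraries, with 95% intervals) under their substrate classes, 3 libraries per group; red marks carriers that rose, blue those that fell and grey those that did not pass an adjusted p of 0.05 by limma. SLC25A6 lies at -1.13, and the others lie between -0.65 and 0.59; the fitted value of SLC25A41 rests on 0 to 3 reads per library.

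The balance between rises and falls depended on how libraries were scaled. Scaling each library to a common median shifted all genes upward, to a median log2 fold change of 0.16, and gave 19 carriers higher (44.6% of all genes) and 6 lower (17.9% of all genes), with a carrier median of 0.13. The falls of SLC25A6, SLC25A29, SLC25A22, SLC25A36, SLC25A12 and SLC25A40 kept their call under that scaling, at -0.97, -0.49, -0.47, -0.33, -0.24 and -0.24. The other 7 falls did not, and SLC25A46 stood at 0.01. The carriers called higher under that scaling but not without it were SLC25A13, SLC25A14, SLC25A26, SLC25A35, SLC25A37, SLC25A38, SLC25A39 and SLC25A41, at 0.32, 0.29, 0.36, 0.38, 0.20, 0.17, 0.26 and 0.32. Transcript length also moved with the fold change, as it did over all genes. With all genes in 5 length groups of about equal size, the median log2 fold change was 0.23 in the group with the shortest transcripts and -0.23 in that with the longest. The 9 carriers of the shortest group had 3 rises and 0 falls; the 7 and 2 carriers of the longest groups had 0 rises, with 3 and 1 falls. Over all genes, 1481 of 2811 rose and 190 fell in the shortest group, and 1181 of 2802 and 1527 of 2806 fell in the longest groups. The part of length in single results was not tested, and a fit that added the replicate block and took out the length and GC trend, called the length-corrected fit below, gave 12 carriers higher (30.5% of all genes) and 15 lower (30.2% of all genes).

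**Figure D2:**
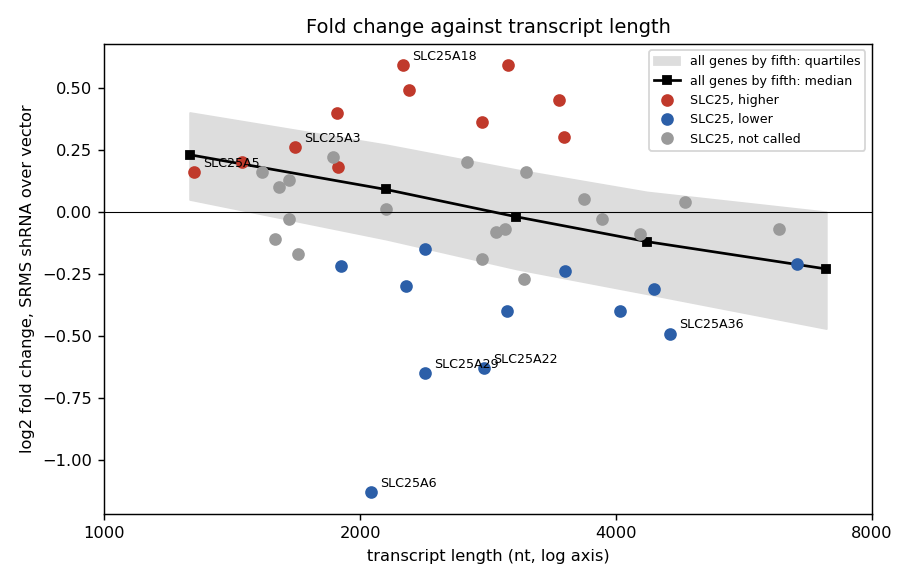
Log2 fold change (y axis, libraries labelled SRMS shRNA over vector libraries) against transcript length (x axis, nucleotides, log axis) for the carriers described in the text, over the median and quartiles of all 14029 genes in 5 groups of length. The line of medians runs from 0.23 to -0.23. SLC25A6, SLC25A29 and SLC25A22 are among several carriers that lie below the lower quartile of genes of their length.

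The ADP/ATP carriers hand ATP made in the matrix to the cytosol in exchange for ADP, and 3 of the 4 human genes were measured. SLC25A6 (ENSG00000169100, ANT3, chromosome X, 1386152 to 1392724, minus strand, GRCh38) had a signal of 168, 189 and 189 in the libraries labelled SRMS shRNA, against 377, 408 and 414 in the vector libraries. The groups were far apart, with the highest library labelled SRMS shRNA well under the lowest vector library. The means were 182 ± 12.2 and 400 ± 19.5 (SD, n = 3 each), 2.19 times lower in the libraries labelled SRMS shRNA (log2 fold change -1.13, 95% interval -1.25 to -1.01, limma adjusted p = 2.27e-07). Over all settings tried the log2 fold change lay between -1.31 and -0.97.

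SLC25A5 (ENSG00000005022, ANT2, chromosome X, 119468400 to 119471319, plus strand), the form typical of dividing cells, had 562, 554 and 560 in the libraries labelled SRMS shRNA, against 507, 494 and 502 in the vector libraries. It rose slightly and without overlap, with means of 559 ± 4.19 and 501 ± 6.63 (SD, n = 3 each; log2 fold change 0.16, limma adjusted p = 0.00121), but quantile scaling gave 0.04 (limma adjusted p = 0.371) and the length-corrected fit gave -0.04. SLC25A4 (ENSG00000151729, ANT1, chromosome 4, 185143241 to 185150382, plus strand), the form of heart and skeletal muscle, was scarce, with 8.5, 8.77 and 8.76 in the libraries labelled SRMS shRNA, against 11, 10.7 and 10.9 in the vector libraries. It fell by 0.31 on the log2 scale (limma adjusted p = 0.00327), a call lost under median scaling at -0.15 (limma adjusted p = 0.0823) and in the length-corrected fit at -0.16 (limma adjusted p = 0.0753).

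The makeup of the ADP/ATP carrier mRNA therefore differed between the groups. Per kb of transcript, SLC25A6 made up 15.5%, 17.4% and 17.2% of the summed signal of the 3 genes in the libraries labelled SRMS shRNA, against 31.4%, 33.6% and 33.6% in the vector libraries. SLC25A5 made up 82.3% to 84.1% in the libraries labelled SRMS shRNA and 65.9% to 68.2% in the vector libraries. The sum of the 3 was 525 to 533 signal per kb in the libraries labelled SRMS shRNA and 583 to 597 in the vector libraries, with no overlap. That sum was not computed under median scaling, which put SLC25A5 at 0.32 and SLC25A6 at -0.97. The lower sum may therefore depend on how libraries were scaled. These shares depend on the transcript chosen for each gene, which does not change their order between groups. The ratio of SLC25A6 to SLC25A5 signal, which needs no length, was 0.299, 0.342 and 0.338 in the libraries labelled SRMS shRNA, against 0.745, 0.826 and 0.824 in the vector libraries (two-sided exact permutation p = 0.1, the smallest that 3 against 3 can give).

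**Figure D3:**
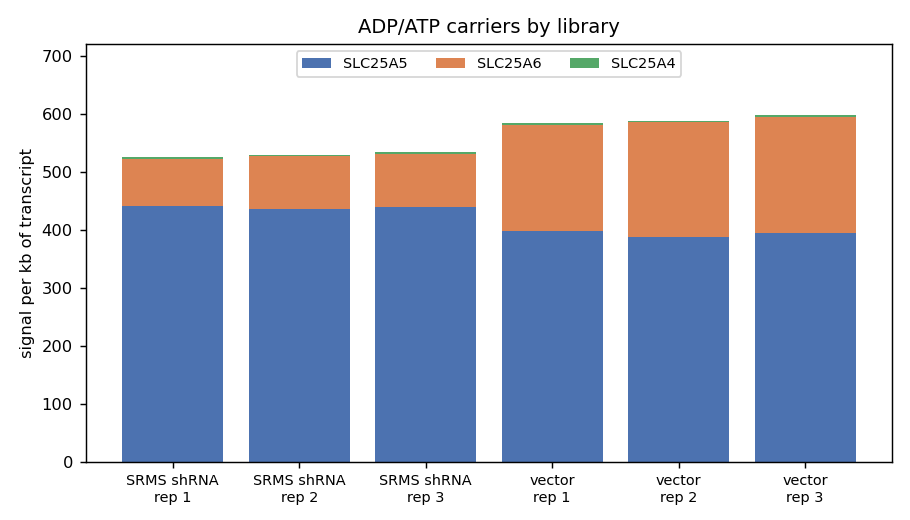
Stacked bars of signal per kb of transcript (y axis, from 0) for the ADP/ATP carriers SLC25A5, SLC25A6 and SLC25A4 in each of the 6 libraries, those labelled SRMS shRNA on the left and vector on the right. The SLC25A6 part is 15.5% to 17.4% of each bar in the libraries labelled SRMS shRNA and 31.4% to 33.6% in the vector libraries.

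The coding sequences of SLC25A6 and SLC25A5 were 78.8% identical over 897 nt each, with no identical run longer than 29 nt in their alignment. Whether reads of one were in part assigned to the other or to their processed pseudogenes was not tested. It depends on counting settings not given in the sources used here. SLC25A6 lies in the pseudoautosomal region of the short arm of X, and the table carried a row for each of its copies with the same values, of which 1 was used. Of 10 pseudoautosomal genes of the short arm with a row for each copy, a set looked up after the fall of SLC25A6 was seen, 7 rose, 2 fell and 1 did not pass. The nearest of them, IL3RA and ASMTL, had log2 fold changes of 0.88 and 0.27 (limma adjusted p = 0.0002 and 0.000774), and the other gene that fell was ZBED1, at -0.54. Over all genes 26.6% rose and 30.2% fell. Of the pseudoautosomal genes of the long arm, VAMP7 fell by more than SLC25A6, at -1.46. The scarce SPRY3 fell there as well, at -0.64, and the scarce IL9R rose, at 0.68.

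The 4 carriers with the lowest fold changes shared a hexamer in their transcripts. The next lowest, SLC25A12, SLC25A40, SLC25A4 and SLC25A17, at -0.40, -0.40, -0.31 and -0.30, did not have it in the coding sequence or 3′ UTR. The hexamer, CGTGTC, had been picked out by an earlier scan of these same fold changes, so its presence here is a description and no independent support. It was searched on the sense strand of 1 transcript per gene (GENCODE release 29, GRCh38). It lay in the coding sequence or 3′ UTR of 11 of the 43 carriers, and in 25.5% of all genes. Of the 11 carriers 4 rose, 6 fell and 1 did not pass; over all genes 46.3% of those with it in the 3′ UTR fell, 35% of those with it in the coding sequence only and 27.1% of those with neither. Sites of SLC25A6, SLC25A29 and SLC25A36 are shown first, as they carry this description, followed by 3 sites of carriers that rose; capitals mark the hexamer.
SLC25A6: ggcagccgattcCGTGTCttgatcacgggg
SLC25A29: tacgtcaggcatCGTGTCctggctctctac
SLC25A36, first site: gcggcatgtcctCGTGTCttctctgatttt
SLC25A36, second site: agaatattgcagCGTGTCattgcaagcttt
SLC25A5: ccaaggctttaaCGTGTCtgtgcagggtat
SLC25A18: cttcttccccttCGTGTCtacactcgtttt
SLC25A23: agtggcaggtgcCGTGTCacggacaggcac

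The SLC25A6 stretch is at chrX:1386392-1386421 (minus strand) in the 3′ UTR. That of SLC25A29, at chr14:100292575-100292604 (minus strand), is in coding sequence. SLC25A36 holds its sites in the 3′ UTR, at chr3:140977163-140977192 and chr3:140978075-140978104 (plus strand). The SLC25A18 site shown, at chr22:17590408-17590437 (plus strand), is in the 3′ UTR as well, whereas those of SLC25A5, at chrX:119470071-119470100 (plus strand), and SLC25A23, at chr19:6454593-6454622 (minus strand), are coding. A site in the 3′ UTR was thus present both in the carrier with the largest fall and in SLC25A18, which rose by 0.59. Over all genes, the 1338 with the hexamer in the 3′ UTR had a median log2 fold change of -0.16, the 2244 with it in the coding sequence only had -0.03, and the 10447 with neither had 0.03. Their median transcript lengths were 4820.5, 3652.5 and 2769 nt, so these medians are not matched for length. The 32 carriers without the hexamer had 7 rises and 7 falls and a median of -0.03.

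**Figure D4:**
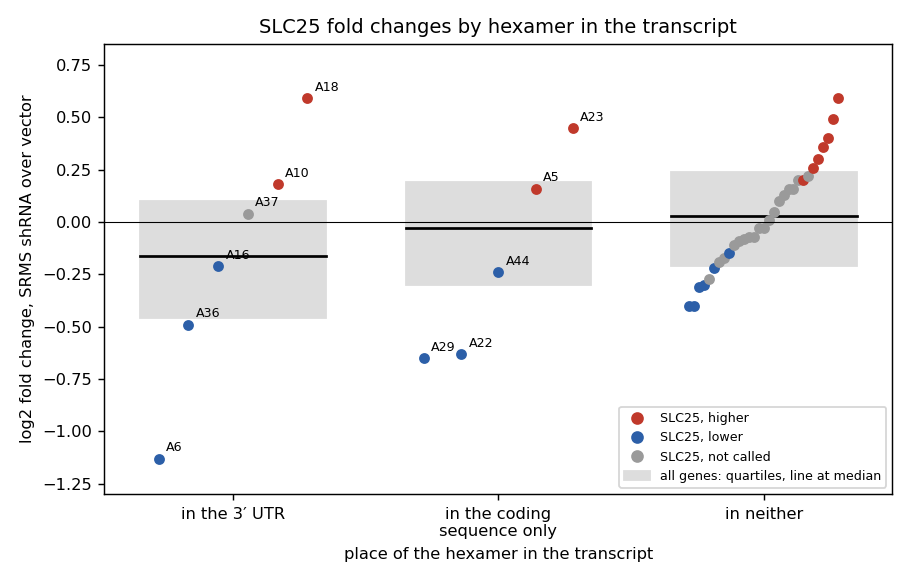
Log2 fold changes (y axis, libraries labelled SRMS shRNA over vector libraries) of the carriers described in the text by where the hexamer lies in the transcript (x axis), with the quartiles and median of all genes as boxes; labels leave out the SLC25 prefix. SLC25A6 is lowest at -1.13 in the 3′ UTR column, where SLC25A18 is highest at 0.59.

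Carriers of ATP-Mg and phosphate, which set the size of the matrix adenine nucleotide pool and most of which are regulated by calcium, had 2 rises and 0 falls among 4. Over all genes 26.6% rose and 30.2% fell, and median scaling gave this class 3 rises and 0 falls. SLC25A23 (chromosome 19, 6436079 to 6465203, minus strand) had 7.11, 8.5 and 8.25 in the libraries labelled SRMS shRNA, against 5.75, 5.24 and 6.10 in the vector libraries. SLC25A25 had 45.2, 40.8 and 41.4 in the libraries labelled SRMS shRNA, against 35.8, 33.6 and 33.8 in the vector libraries. Neither pair of groups overlapped, and the log2 fold changes were 0.45 (limma adjusted p = 0.00271) and 0.30 (limma adjusted p = 0.000839). SLC25A24, the most abundant of the class per kb, had 60.3, 59.3 and 59.3 in the libraries labelled SRMS shRNA, against 59.2, 67.5 and 63.6 in the vector libraries. These values overlapped (log2 fold change -0.09, limma adjusted p = 0.163; 0.0474 with the replicate number as a block, and -0.13 with 0.0333 without vector replicate 1). In the length-corrected fit it was called in the other direction, at 0.10 (limma adjusted p = 0.0117). SLC25A41 was counted in 0 to 3 reads per library and is given no fold.

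SLC25A3 (ENSG00000075415, chromosome 12, 98593591 to 98606379, plus strand), which brings phosphate for ATP synthesis and copper for cytochrome c oxidase into the matrix, was the most abundant carrier. It had 904, 959 and 947 in the libraries labelled SRMS shRNA, against 783, 774 and 792 in the vector libraries. The rise was clear of the spread in both groups, with means of 937 ± 28.7 and 783 ± 8.91 (SD, n = 3 each; log2 fold change 0.26, limma adjusted p = 0.000113). In the length-corrected fit it was 0.16.

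Among the 4 carriers of aspartate and glutamate 1 rose, 2 fell and 1 did not pass. SLC25A22 (ENSG00000177542, chromosome 11, 790475 to 798333, minus strand), a glutamate carrier, had 32.4, 33.5 and 34.2 in the libraries labelled SRMS shRNA, against 50.0, 53.6 and 51.6 in the vector libraries. SLC25A18 (chromosome 22, 17563439 to 17590994, plus strand), its closest relative, had 1.75, 1.73 and 1.57 in the libraries labelled SRMS shRNA, against 1, 1.05 and 0.819 in the vector libraries. SLC25A22 was lower and SLC25A18 higher in every library labelled SRMS shRNA than in any vector library, at log2 fold changes of -0.63 (95% interval -0.73 to -0.52, limma adjusted p = 2.84e-06) and 0.59 (95% interval 0.33 to 0.84, limma adjusted p = 0.00152). SLC25A18 remained the scarcer gene by far, at 0.750 ± 0.0453 signal per kb in the libraries labelled SRMS shRNA and 0.426 ± 0.0541 in the vector libraries, against 11.9 ± 0.314 and 18.5 ± 0.631 for SLC25A22 (SD, n = 3 each).

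The aspartate-glutamate exchangers of the malate-aspartate shuttle, which brings reducing power from the cytosol into the matrix, form the other pair. SLC25A12 (aralar) had 11.7, 11.2 and 10.5 in the libraries labelled SRMS shRNA, against 14.8, 14.5 and 15.2 in the vector libraries, and fell by 0.40 on the log2 scale (limma adjusted p = 0.000654). SLC25A13 (citrin) had 23.3, 22.1 and 24.6 in the libraries labelled SRMS shRNA, against 19.8, 20.6 and 22.0 in the vector libraries. Its values did not overlap, yet at 0.16 it did not pass (limma adjusted p = 0.0553; 0.0117 with the replicate number as a block). Leaving out SRMS shRNA replicate 2 or vector replicate 3 gave 0.20 and a call (limma adjusted p = 0.0432 and 0.0463). The ratio of SLC25A13 to SLC25A12 was 1.98, 1.98 and 2.34 in the libraries labelled SRMS shRNA, against 1.34, 1.42 and 1.45 in the vector libraries (two-sided exact permutation p = 0.1, the smallest possible). Of 10 such ratios between related carriers computed in all, 9 did not overlap between groups, and their adjusted p was 0.111. Some of these pairs share a gene. No share was computed for ratios of other gene pairs, and 62.7% of single genes already did not overlap, so the count is a description only.

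SLC25A11, which completes the shuttle by exchanging malate for oxoglutarate, fell. It had 72.4, 81.3 and 76.4 in the libraries labelled SRMS shRNA, against 87.5, 90.1 and 90.8 in the vector libraries (log2 fold change -0.22, limma adjusted p = 0.00222; -0.06 under median scaling, limma adjusted p = 0.295; -0.37 in the length-corrected fit). Among the shuttle's enzymes 3 of 4 rose and 1 fell, where 26.6% of all genes rose and 30.2% fell. MDH2, the matrix malate dehydrogenase, MDH1, its cytosolic form, and GOT1, the cytosolic aspartate transaminase, had log2 fold changes of 0.34, 0.24 and 0.33 (limma adjusted p = 0.000302, 0.000412 and 5.55e-05). The matrix transaminase GOT2 had -0.08 (limma adjusted p = 0.0411), and 0.08 and no call under median scaling. In the length-corrected fit MDH2, MDH1, GOT1 and GOT2 were at 0.27, 0.13, 0.33 and -0.12.

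SLC25A1, the citrate exporter that feeds lipid synthesis, had 62.7, 77.1 and 75.9 in the libraries labelled SRMS shRNA, against 67.2, 76.2 and 76.2 in the vector libraries. The groups overlapped, and replicate 1 was the lowest of each (log2 fold change -0.03, 95% interval -0.20 to 0.15, limma adjusted p = 0.775). It was -0.27 in the length-corrected fit (limma adjusted p = 9.76e-08). SLC25A10, the dicarboxylate carrier, rose by 0.18 (limma adjusted p = 0.014), with values of 36.4, 35.8 and 37.2 in the libraries labelled SRMS shRNA and 30.5, 31.9 and 34.1 in the vector libraries. In the length-corrected fit it was -0.02, and the rise missed the threshold without vector replicate 1 or without SRMS shRNA replicate 3 (0.14 and 0.17; limma adjusted p = 0.0507 and 0.0521). SLC25A21, the oxoadipate carrier, rose by 0.36 (limma adjusted p = 0.0447), a call lost without any 1 of 4 of the 6 libraries (vector replicates 2 or 3, SRMS shRNA replicates 1 or 2), where it was 0.26, 0.39, 0.23 and 0.41. Of 8 enzymes that use citrate or build fatty acids from it, 2 rose and 4 fell, among them malic enzyme ME1 at -0.40, ATP-citrate lyase ACLY at -0.13 and isocitrate dehydrogenase IDH1 at 0.14 (limma adjusted p = 0.000142, 0.0131 and 0.0151); ACLY did not pass under median scaling (0.03) or in the length-corrected fit (-0.02).

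Among carriers of other amino acids and of carnitine, 1 of 5 rose and 2 fell. SLC25A29 (ENSG00000197119, chromosome 14, 100291111 to 100306547, minus strand), which imports arginine and lysine, had 13.6, 13.9 and 15.3 in the libraries labelled SRMS shRNA, against 21.2, 25.4 and 21.5 in the vector libraries. The highest value in the libraries labelled SRMS shRNA was well under the lowest vector value, with means of 14.3 ± 0.953 and 22.7 ± 2.34 (SD, n = 3 each; log2 fold change -0.65, limma adjusted p = 8.36e-05). SLC25A20, the carnitine-acylcarnitine exchanger of fatty acid oxidation, had 7.52, 8.25 and 8.73 in the libraries labelled SRMS shRNA, against 5.62, 6.29 and 6.24 in the vector libraries, a rise of 0.40 (limma adjusted p = 0.00308). CPT1A, the enzyme that makes acylcarnitine at the outer membrane, was scarce, at 20 to 69 reads per library. It rose, with a mean of 1.69 in the libraries labelled SRMS shRNA and 0.720 in the vector libraries (log2 fold change 0.84, limma adjusted p = 0.000204). CPT2 and CRAT, more abundant enzymes that rest on carnitine, did not pass, at 0.07 and 0.06 (limma adjusted p = 0.318 and 0.379). Under median scaling both were called, at 0.23 and 0.22. SLC25A44, a carrier of branched-chain amino acids, fell by 0.24 (limma adjusted p = 0.033), with values that overlapped between groups and a call lost without vector replicate 1 or 3 or SRMS shRNA replicate 2 or 3, at -0.17, -0.27, -0.21 and -0.19. SLC25A38, the glycine carrier of haem synthesis and the most abundant of this class per kb, had 55.3, 51.8 and 55.1 in the libraries labelled SRMS shRNA, against 52.9, 53.8 and 54.2 in the vector libraries (log2 fold change 0.01, 95% interval -0.08 to 0.11, limma adjusted p = 0.85). SLC25A15, the ornithine carrier of the urea cycle, had -0.11 (limma adjusted p = 0.124; -0.26 and 0.000144 in the length-corrected fit).

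Carriers of nucleotides and cofactors had 0 rises and 4 falls among 9, where 26.6% of all genes rose and 30.2% fell. Median scaling left 1 rise and 1 fall in this class, and the length-corrected fit gave 1 rise and 4 falls. SLC25A36 (chromosome 3, 140941830 to 140980961, plus strand), a pyrimidine nucleotide carrier, had 21.7, 19.5 and 19.3 in the libraries labelled SRMS shRNA, against 29, 28.9 and 27.5 in the vector libraries. It fell without overlap, by 0.49 on the log2 scale (95% interval -0.62 to -0.35, limma adjusted p = 8.27e-05; -0.27 in the length-corrected fit). Its relative SLC25A33, which also carries pyrimidine nucleotides, had 24.7, 28.1 and 28.3 in the libraries labelled SRMS shRNA, against 26.3, 28.3 and 28.4 in the vector libraries, and did not pass at -0.03 (95% interval -0.18 to 0.11, limma adjusted p = 0.675).

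SLC25A17, a carrier of the peroxisome, fell by 0.30 (limma adjusted p = 0.00239) and SLC25A16, linked to coenzyme A transport, by 0.21 (limma adjusted p = 0.0318). Under median scaling they were at -0.14 and -0.05, and neither passed; SLC25A16 was at 0.05 in the length-corrected fit. SLC25A16 also lost its call without vector replicate 2 or 3 or SRMS shRNA replicate 3, at -0.20, -0.18 and -0.18. The folate carrier SLC25A32, on which one-carbon metabolism in the matrix rests, had 8.54, 8.08 and 8.95 in the libraries labelled SRMS shRNA and from 8.03 to 10.0 in the vector libraries (log2 fold change -0.08, limma adjusted p = 0.513). SLC25A26, which imports S-adenosylmethionine, had 12.6, 13.9 and 13.2 in the libraries labelled SRMS shRNA, against 12.6, 11.4 and 10.5 in the vector libraries (log2 fold change 0.20, limma adjusted p = 0.0565; 0.022 with the replicate number as a block); it was called without SRMS shRNA replicate 1 or vector replicate 1, at 0.23 and 0.27. SLC25A51, the NAD carrier, had -0.17 (limma adjusted p = 0.0871; -0.22 and called without SRMS shRNA replicate 1, and -0.31 with 0.000966 in the length-corrected fit), and SLC25A42, for coenzyme A, stood under a signal of 2 in every library (-0.27, limma adjusted p = 0.0716). Of 21 enzymes measured that rest on these cofactors, on carnitine, iron, glutathione or ornithine, 9 rose and 4 fell. Over all genes 26.6% rose and 30.2% fell. Median scaling gave this list 15 rises and 1 fall (44.6% and 17.9% of all genes). The length-corrected fit gave it 11 rises and 4 falls (30.5% and 30.2% of all genes). GPX4, the glutathione peroxidase that removes lipid peroxides, had 0.47, ISCU, the iron-sulphur cluster scaffold, 0.43 and GSR, glutathione reductase, -0.36 (limma adjusted p = 5.69e-05, 0.000111 and 0.000112); GPX4 and ISCU were at 0.14 and 0.20 in the length-corrected fit, and GSR at -0.20 under median scaling.

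The iron and glutathione carriers had 1 rise and 1 fall among 4. SLC25A28 (mitoferrin 2), the form of non-erythroid cells, had 56.4, 55.5 and 59.2 in the libraries labelled SRMS shRNA, against 49.3, 50.0 and 49.5 in the vector libraries. It rose by 0.20 (limma adjusted p = 0.00232), but was at -0.01 in the length-corrected fit. SLC25A37 (mitoferrin 1), known from red cell precursors, did not pass at 0.04 (95% interval -0.08 to 0.16, limma adjusted p = 0.531), but was called at 0.19 in the length-corrected fit (limma adjusted p = 0.000549). SLC25A40 had 12.9, 13.2 and 13.3 in the libraries labelled SRMS shRNA, against 18.2, 17.4 and 16.9 in the vector libraries, and fell by 0.40 (limma adjusted p = 0.000315; -0.21 in the length-corrected fit). SLC25A39, its relative and the main mitochondrial glutathione importer, had 151, 176 and 171 in the libraries labelled SRMS shRNA, against 147, 161 and 156 in the vector libraries, and the groups overlapped (0.10, limma adjusted p = 0.16; 0.00192 with the replicate number as a block). Without SRMS shRNA replicate 1 it was 0.16 (limma adjusted p = 0.00376), and in the length-corrected fit it turned to -0.12.

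The uncoupling-protein-like SLC25A14, SLC25A27 and SLC25A30 did not pass, at 0.13, -0.07 and 0.05 (limma adjusted p = 0.163, 0.512 and 0.692). SLC25A14 had 10.6, 12 and 11.9 in the libraries labelled SRMS shRNA, against 10.2, 10.3 and 10.9 in the vector libraries. Of the 6 carriers with no settled substrate, 2 rose and 1 fell. SLC25A34 was counted in 20 to 80 reads per library and had a signal of 2.04, 1.29 and 1.47 in the libraries labelled SRMS shRNA, against 0.669, 0.699 and 1.39 in the vector libraries. Its groups overlapped through vector replicate 3, and the rise of 0.59 (limma adjusted p = 0.0282) was lost without vector replicate 1 or 2 or SRMS shRNA replicate 1 or 3, at 0.46, 0.48, 0.44 and 0.62. SLC25A45 had 1.24, 1.57 and 1.18 in the libraries labelled SRMS shRNA, against 1.07, 0.764 and 0.593 in the vector libraries, and its rise of 0.49 (limma adjusted p = 0.0187) was lost without vector replicate 2 or 3 or SRMS shRNA replicate 2, at 0.48, 0.37 and 0.40. SLC25A46, an outer membrane protein tied to mitochondrial shape, had 56.5, 52.7 and 52.8 in the libraries labelled SRMS shRNA, against 61.8, 58.0 and 60.1 in the vector libraries, and fell by 0.15 (limma adjusted p = 0.0167). That call was lost without vector replicate 1 or 3 or SRMS shRNA replicate 2 or 3 (-0.13, -0.15, -0.13 and -0.13). SLC25A35 had 0.22 (limma adjusted p = 0.075; 0.0398 with the replicate number as a block, and 0.29 and called without SRMS shRNA replicate 1), SLC25A43 -0.19 (limma adjusted p = 0.252) and SLC25A53 -0.07 (limma adjusted p = 0.683).

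**Figure D5:**
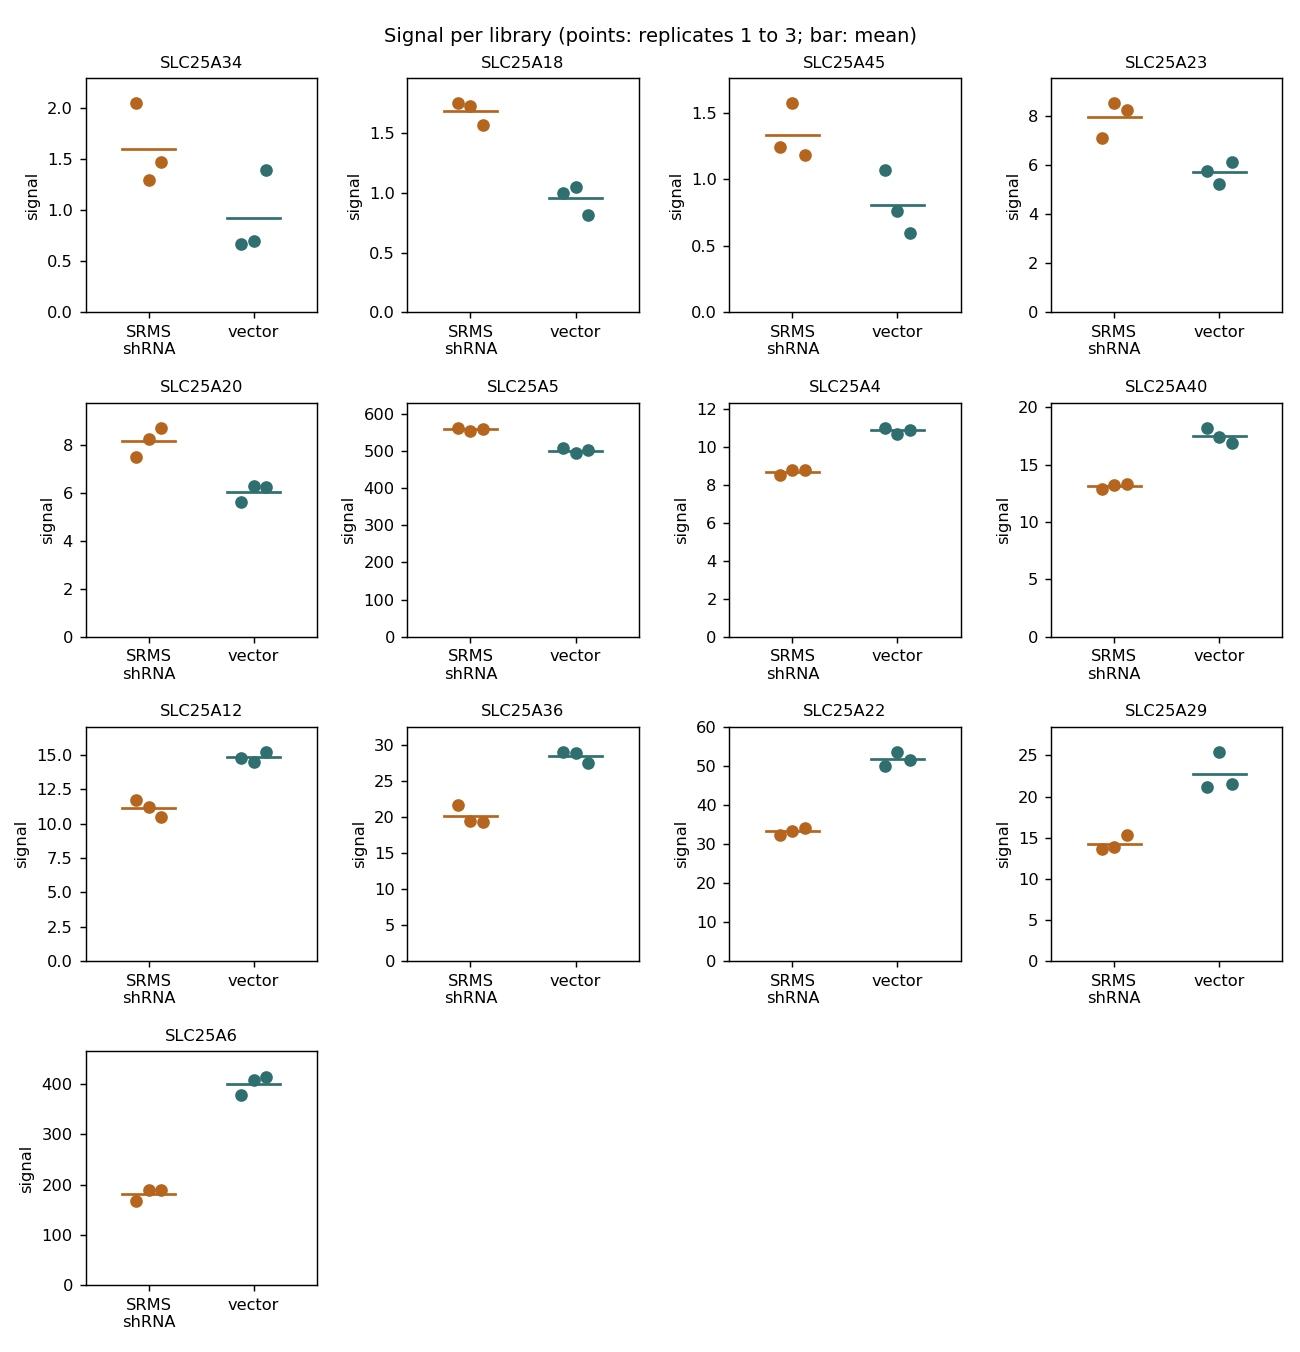
Signal (y axis, from 0) in each library for the ADP/ATP carriers and for the carriers past the threshold with a log2 fold change that rounds to 0.40 or more in size, libraries labelled SRMS shRNA left of vector, points for replicates and a bar at the mean. Apart from SLC25A34, where vector replicate 3 reaches into the other group, the groups do not overlap.

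Most carrier mRNA came from 3 genes in both groups. SLC25A3, SLC25A5 and SLC25A6 held 62.6% to 62.7% of the summed signal of the 43 carriers in the libraries labelled SRMS shRNA and 61.2% to 62.0% in the vector libraries. The summed signal was 2611 to 2718 in the libraries labelled SRMS shRNA and 2689 to 2757 in the vector libraries, and these ranges overlapped. Per kb of transcript, SLC25A3 led with 558 ± 17.1 in the libraries labelled SRMS shRNA and 467 ± 5.31 in the vector libraries, before SLC25A5 with 438 ± 3.29 and 393 ± 5.20 (SD, n = 3 each, libraries labelled SRMS shRNA first). SLC25A6 had 88.4 ± 5.90 in the libraries labelled SRMS shRNA, where it stood below SLC25A39 at 103 ± 8.15, and 194 ± 9.43 in the vector libraries, where it stood above SLC25A39 at 96.2 ± 4.21. The next places were held by SLC25A1, SLC25A11 and SLC25A28, whose values of 43.6 ± 4.85, 40.4 ± 2.33 and 39.3 ± 1.34 lay within their spread of each other in the libraries labelled SRMS shRNA. In the vector libraries SLC25A11 and SLC25A1, at 47.2 ± 0.907 and 44.4 ± 3.15, also lay within that spread, above SLC25A28 at 34.2 ± 0.241. At the low end 5 carriers had a mean signal under 2 in both groups, SLC25A18, SLC25A34, SLC25A41, SLC25A42 and SLC25A45.

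The balance of rises and falls among relatives and neighbours of the carriers depended on scaling, with median scaling giving 2 rises and 0 falls for the relatives, 3 and 0 for the outer membrane channels, 9 and 2 for other inner membrane transporters and 5 and 0 for import genes. Of 3 measured relatives under other names, MTCH2, an outer membrane insertase, rose by 0.11 (limma adjusted p = 0.0439), and MTCH1 and UCP2 did not pass at -0.07 and -0.06 (limma adjusted p = 0.0686 and 0.733; 0.00303 for MTCH1 with the block, and -0.22 in the length-corrected fit). Among the outer membrane channels, through which metabolites reach the carriers, VDAC2 and VDAC1 rose by 0.27 and 0.14 (limma adjusted p = 0.000108 and 0.0196), and VDAC3 did not pass at -0.03 (limma adjusted p = 0.391); in the length-corrected fit the 3 channels were at 0.15, 0.06 and -0.17. Of 19 other transporters of the inner membrane 5 rose and 5 fell. They included LETM1, a cation exchanger, at -0.57, ABCB10, which acts in haem synthesis, at -0.62, MPC1, a pyruvate carrier subunit, at 0.41 and SFXN4 at 0.35 (limma adjusted p = 1.99e-06, 4.48e-05, 0.000102 and 0.00129); in the length-corrected fit MPC1 was at 0.21 and SFXN4 at 0.18. Of 8 genes for the import of carriers into the inner membrane 2 rose and 2 fell. The receptor TOMM70 had -0.14, the small chaperone TIMM10 0.25, TIMM29 0.19 and AGK, a part of the carrier translocase, -0.16 (limma adjusted p = 0.00742, 0.0208, 0.0231 and 0.0255). In the length-corrected fit none of these 4 passed, at 0.03, -0.06, -0.05 and -0.03, and TOMM70 and AGK did not pass under median scaling. Of 9 regulators of mitochondrial gene expression 2 rose and 3 fell, with the coactivators PPRC1 at -0.40 and PPARGC1B at -0.87, TFAM, which packages mitochondrial DNA, at 0.27 and the nuclear receptor ESRRA at 0.24 (limma adjusted p = 4.68e-06, 0.000447, 0.000298 and 0.000611).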

How the data were processed

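Libraries were stranded and made from poly(A) RNA, per the labels' protocols. The submitters' processing notes name edgeR, StringTie, HISAT2, cutadapt and FastQC, and the build GRCh38, with settings and versions not given in the sources used here. Linear signal is what the authors' deposited table holds (gene reads over the effective size of the library, on the CPM scale), although it is named for log values; at least 99.993% of values in each library were whole reads within 0.1. Of 14042 rows, 13 second rows of pseudoautosomal genes were left out. Tests used limma 3.58.1 (R 4.3.3) with a mean-variance trend on log2(signal + 0.5), which understates the change of low genes, and were tested on simulated data. Carriers past the threshold and with a log2 fold change that rounds to 0.4 or more in size, the ADP/ATP carriers and the most abundant of each class were given by library. Members, classes and lists were chosen with earlier results of these data known. Deviations of same-numbered libraries correlated at 0.309, 0.106 and 0.12 across genes, so equal numbers may pair libraries; the main fit has no block, and the blocked fit is an alternative. Replicate 2 of each group correlated as well with replicate 3 of the other (0.113 and 0.114). Within groups, chi-square per gene at 200 reads or more was 1.91 and 2.04 between replicates 2 and 3, above sampling noise, and 9.9 to 15 for pairs with replicate 1. Alternatives were other scalings, filters and pseudocounts, edgeR 4.0.16 and DESeq2 1.42.0 on recovered reads, the block, and libraries left out. A further alternative averaged replicates 2 and 3 of each group. Some genes and sequences are not reported here; counts over lists include them.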

Additional observations from a re-analysis of the deposited data

How the results depend on the processing

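The count of 24 carriers called, and of 7969 genes, stayed within 1.5 times under every setting except a minimum absolute log2 fold change of 0.5, which left 2394 genes and 5 carriers, 2 higher and 3 lower. Median scaling gave 19 carriers higher, 6 lower and a median of 0.13; quantile scaling gave 8 lower and a median of 0.05. Leaving out 1 library gave 6895 to 8324 genes, 19 to 26 carriers (8 to 12 higher, 10 to 14 lower) and medians of -0.07 to 0.00. edgeR's quasi-likelihood test on the recovered reads called 8058 genes and 26 carriers, and DESeq2 7375 and 24. Averaging replicates 2 and 3 of each group, the closest replicates, left 6076 genes and 18 carriers, 8 higher and 10 lower. The calls of SLC25A10, SLC25A16, SLC25A21, SLC25A44, SLC25A45 and SLC25A46 were lost there, at 0.20, -0.19, 0.39, -0.24, 0.41 and -0.15. With the replicate block 9154 genes and 29 carriers were called; it ended no call and added SLC25A13, SLC25A24, SLC25A26, SLC25A35 and SLC25A39. Values that turned sign and were called with or without the alternative were SLC25A46 under median scaling (0.01) and, in the length-corrected fit, SLC25A5 (-0.04), SLC25A10 (-0.02), SLC25A28 (-0.01), SLC25A39 (-0.12), SLC25A16 (0.05) and SLC25A24 (0.10). SRMS reached the threshold upward with the block (0.52) and without replicate 1 of both groups (0.51), and ranged from 0.23 to 0.84 with 1 library left out, reaching it without SRMS shRNA replicate 1 (0.79) or vector replicate 3 (0.84). The cause was not tested. SLC25A6, SLC25A22, SLC25A29 and SLC25A18 kept their direction and call under every setting that gave them a value. Depth limits SLC25A41 most.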
